A study of Rattus norvegicus with 325 samples.

Results

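Polyamines are small charged molecules made from the amino acids ornithine and methionine. Odc1, ornithine decarboxylase, makes putrescine from ornithine, and Amd1 makes the decarboxylated S-adenosylmethionine whose aminopropyl group is passed on to putrescine by Srm, spermidine synthase, and to spermidine by Sms, spermine synthase. Sat1 acetylates spermidine and spermine, which marks them for oxidation or export, and Smox oxidizes spermine back to spermidine. Oaz1, an antizyme made when polyamines are plentiful, binds Odc1 and sends it to the proteasome, and Azin1, the antizyme inhibitor, takes antizyme away from Odc1. In skeletal muscle this pathway is known for its response to androgens and to changes in muscle mass.

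These 8 genes were followed through the raw gene counts of bulk RNA sequencing libraries, in which all 8 were found among 17315 gene symbols. The libraries came from the diaphragm, soleus, gastrocnemius and tibialis anterior of male Sprague Dawley rats, with no treatment or altered gene named in the labels, at 7 ages, which were 6, 9 and 12 months, then 18 months, and then every 3 months up to 27, with 9 to 13 libraries, from as many animals, in each of the 28 groups of muscle and age. Muscles of 1 age may come from the same rats, but the labels do not tie them. Comparisons between muscles therefore took all libraries as separate, and their SE and p leave out any such pairing. Each age group was collected on a day of its own, and an effect of that day cannot be told apart from one of age. The gastrocnemius libraries were numbered as a separate series in the labels, so that series cannot be told apart from the muscle. The 12-month libraries of the other muscles carried another, which also held 1 library of 21 months in each. Leaving that series out changed no call at the other ages. It took away the 12-month comparison in those muscles, where series and age cannot be told apart. Total counts per library were 17555294 to 85316329, and the counts of the members ran from 30 reads for Smox to 28566 for Oaz1, so none was near 0. The labels fitted the fiber genes at 6 months. Myh7, the slow myosin, had a median of 47467 CPM (a gene's count relative to all counts of its library) in the soleus against 2066 in the tibialis anterior, and Myh4, a fast myosin, had 8.38 against 87528. One library, the diaphragm at 18 months with replicate number 11, stood apart with the highest Oaz1 (237 CPM), Srm (28.5 CPM) and Odc1 (131 CPM) and the lowest Amd1 (78.6 CPM), Sms (6.77 CPM) and Azin1 (65.0 CPM) of its group.

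Levels are CPM after scaling by the trimmed mean of M values (TMM) over all libraries. They compare a gene between libraries and not one gene with another, because lengths of the counted transcripts are not known here. A gene was called when its Benjamini-Hochberg adjusted p in limma-voom, taken over all genes of the comparison, was under 0.05 and the change was over 1.5-fold. Fold changes are given on the log2 scale with their standard error (SE). Scaling by total counts in place of TMM raised the median log2 change of all genes at 27 months from 0.00 to 0.04 in the diaphragm, 0.02 to 0.16 in the soleus, 0.04 to 0.32 in the gastrocnemius and 0.02 to 0.34 in the tibialis anterior, and values under it are given where it made or ended a call.

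The starts of 4 genes are shown: Sat1 because it rose most, and Amd1, Smox and Srm because they were the members that fell in both the gastrocnemius and tibialis anterior. The sequences are the RefSeq promoter windows of the GRCr8 build, from 250 bases before to 50 bases after the annotated start, in the direction of the gene. Of the 8 genes, 7 had such a window. Capitals mark letters of the motifs listed after them. Sat1 lies on the plus strand at chrX:44007839-44008138, Amd1 on the minus strand at chr20:45265933-45266232, Smox on the plus strand at chr3:139204351-139204650, and Srm on the plus strand at chr5:164308752-164309051.
Sat1: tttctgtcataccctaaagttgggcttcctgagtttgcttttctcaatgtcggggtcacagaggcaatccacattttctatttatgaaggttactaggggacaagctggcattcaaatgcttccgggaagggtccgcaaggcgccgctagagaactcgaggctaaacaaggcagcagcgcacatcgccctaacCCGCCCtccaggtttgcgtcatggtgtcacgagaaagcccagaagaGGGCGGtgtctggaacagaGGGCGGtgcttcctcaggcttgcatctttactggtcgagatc
Amd1: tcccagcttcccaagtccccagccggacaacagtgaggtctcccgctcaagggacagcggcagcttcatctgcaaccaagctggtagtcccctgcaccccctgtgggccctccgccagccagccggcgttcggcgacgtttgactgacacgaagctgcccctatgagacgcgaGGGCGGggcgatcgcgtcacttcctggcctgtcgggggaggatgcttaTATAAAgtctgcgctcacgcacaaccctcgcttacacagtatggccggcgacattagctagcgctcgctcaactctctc
Smox: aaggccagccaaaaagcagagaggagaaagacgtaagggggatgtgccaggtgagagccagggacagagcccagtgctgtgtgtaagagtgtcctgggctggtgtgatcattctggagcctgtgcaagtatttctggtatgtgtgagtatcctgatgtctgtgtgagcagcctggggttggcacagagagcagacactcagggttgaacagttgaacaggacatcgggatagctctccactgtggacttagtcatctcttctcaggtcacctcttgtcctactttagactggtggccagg
Srm: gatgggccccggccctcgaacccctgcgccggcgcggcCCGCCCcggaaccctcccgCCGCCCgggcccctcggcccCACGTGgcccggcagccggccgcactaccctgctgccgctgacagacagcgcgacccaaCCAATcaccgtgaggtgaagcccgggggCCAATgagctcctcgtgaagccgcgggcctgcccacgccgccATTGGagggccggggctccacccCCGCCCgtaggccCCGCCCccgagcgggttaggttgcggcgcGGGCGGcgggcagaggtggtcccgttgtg

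The motifs searched on both strands, overlaps counted, were the TATA box (TATAAA), the E-box (CACGTG), the cyclic AMP response element (TGACGTCA), the CCAAT box (CCAAT), the GC box (GGGCGG), the Runx core (TGTGGT) and the AP-1 site (TGANTCA). The GC box was in 6 of the 7 windows, all but that of Smox, and in 33.1% of 33469 promoter windows. Srm and Odc1 each held 5 GC boxes, and Sat1 and Sms 3 each. The TATA box was in Amd1, 29 bases before the start, and in Oaz1, 28 bases before it, and in 14.2% of all windows. Srm and Oaz1 each held an E-box, found in 6.42% of windows, and CCAAT boxes, found in 37.5%. The cyclic AMP response element (1.83% of all windows), the Runx core (17.3%) and the AP-1 letters (7.33%) were in none of the 7, and the Smox window held none of the motifs. These are matches of letters only.

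With age, the 8 genes parted by muscle. At 27 months 6 of 8 were called against 6 months in the gastrocnemius and 5 in the tibialis anterior, 3 in the soleus, and none in the diaphragm. The tibialis anterior count was 4 with edgeR, DESeq2 or sample quality weights, each time without Srm. With the replicate number as a block, which joins different rats across ages, it was also 4 without Srm. It was 6 with total-count scaling, where Srm was lost and Odc1 and Azin1 were added, and the gastrocnemius count was 5 with total-count scaling or quality weights, without Srm in both. Sat1 was the earliest and largest to rise, from 18 months in the gastrocnemius and tibialis anterior, and Amd1 fell in all 3 limb muscles by 27 months. Odc1 fell in the soleus and was not called in the other muscles with TMM.

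Among all genes tested, the share called grew with age too, and the counts of members are given beside it. In the diaphragm, with the 6 older ages taken in order, 0.108%, 0.532%, 2.25%, 1.68%, 2.68% and 7.52% of 12035 genes were called, and no member at any age. limma-voom gave 0 members there at 27 months, edgeR and DESeq2 also gave 0, and 5 members had an unadjusted p under 0.05 in each of the tools. At 9, 12, 18, 21 and 24 months the diaphragm counts with an unadjusted p under 0.05 in limma-voom were 0, 0, 2, 1 and 2, with 0 called by edgeR and DESeq2. In the soleus the shares were 0.123%, 0.353%, 2.84%, 2.61%, 6.51% and 15% of 12175 genes, with 1 member called at 24 months and 3 at 27 months. Before 24 months no soleus member was called by limma-voom, edgeR or DESeq2, and 1, 1, 4 and 2 members had an unadjusted p under 0.05 in limma-voom at 9, 12, 18 and 21 months. In the gastrocnemius the shares were 0.143%, 0.885%, 4.32%, 5.81%, 18.8% and 22.8% of 11865 genes, with 1, 2, 5 and 6 members called from 18 to 27 months. In the tibialis anterior they were 0.00851%, 0.196%, 5.45%, 6.47%, 14.5% and 27.6% of 11754 genes, with 1, 1, 2 and 5 members called from 18 to 27 months. At 9 and 12 months no member was called in either of these muscles by limma-voom, edgeR or DESeq2, and 1 and 2 members in the gastrocnemius and 2 and 2 in the tibialis anterior had an unadjusted p under 0.05 in limma-voom. The median absolute log2 change of the 8 genes at 27 months was 0.20 in the diaphragm, 0.39 in the soleus, 0.69 in the gastrocnemius and 0.59 in the tibialis anterior, and that of all genes tested was 0.17, 0.23, 0.30 and 0.33.

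**Figure D1:**
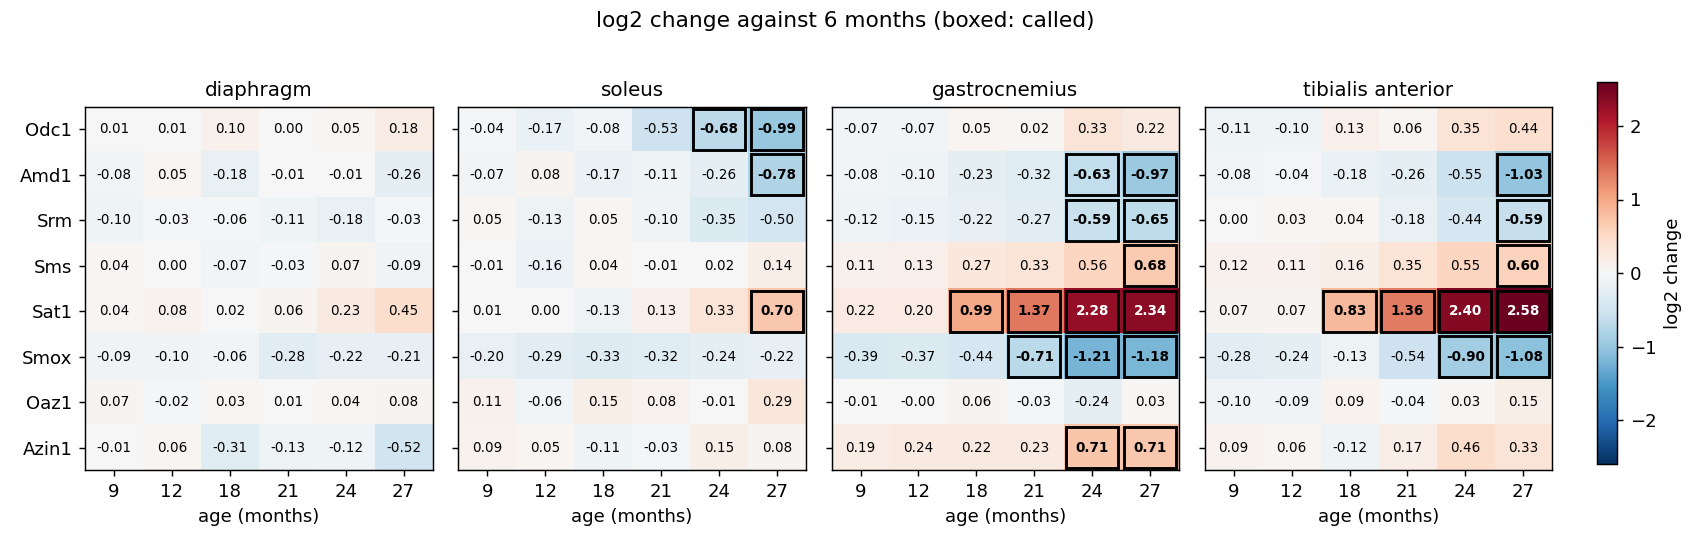
Log2 change against 6 months of each of the 8 genes (lines) at each older age in months (columns) in 4 muscles, with color for the size and direction of the change and a box where it was called. Boxes start at 18 months with Sat1 in the gastrocnemius (0.99) and tibialis anterior (0.83), and none stands in the diaphragm.

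Odc1, the first enzyme of synthesis, was set apart by its muscle. At 6 months its lowest, median and highest levels were 150, 199 and 266 CPM in the soleus (n = 12). They were 72.9, 81.5 and 94.0 CPM in the diaphragm (n = 12), 56.0, 75.0 and 91.9 CPM in the tibialis anterior (n = 12) and 50.4, 67.9 and 92.4 CPM in the gastrocnemius (n = 10). Every soleus library at 6 months thus lay above every library of the other muscles. The 6-month level was higher in the soleus than in the diaphragm by 1.31 on the log2 scale (SE 0.127, 2.47-fold), and the gastrocnemius and tibialis anterior lay below the soleus by 3.06-fold and 2.77-fold, each of them called. The other 3 muscles were not called against each other, but with total-count scaling the gastrocnemius (-0.75) and tibialis anterior (-0.61) were called below the diaphragm.

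In the soleus Odc1 then fell. At 27 months its lowest, median and highest levels were 68.4, 92.0 and 203 CPM, and 10 of 12 libraries lay below the lowest of 6 months. The log2 change was -0.68 at 24 months (SE 0.163, adjusted p = 0.000781) and -0.99 at 27 months (SE 0.163, adjusted p = 2.96e-07, 1.98-fold lower). The other 2 stayed within the 6-month range, and the one at 203 CPM carried replicate number 9. In the tibialis anterior the 27-month levels ran the other way, from 81.9 through 98.5 to 112 CPM, with 10 of 12 libraries above the highest of 6 months, a log2 change of 0.44 (SE 0.124, adjusted p = 0.00103) that stayed under 1.5-fold. With total-count scaling it was 0.76 and called, as was the gastrocnemius at 24 months (0.60). In the diaphragm the change was 0.18 (SE 0.0705, adjusted p = 0.0271) and in the gastrocnemius 0.22 (SE 0.125, adjusted p = 0.113), neither called. The soleus change differed from that of the diaphragm by -1.23 (SE 0.178, adjusted p = 1.33e-09), and those of the gastrocnemius and tibialis anterior differed from the soleus by 1.22 (adjusted p = 5.95e-09) and 1.44 (adjusted p = 7.51e-13).

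Amd1, which supplies the aminopropyl donor, fell in the limb muscles. Tibialis anterior levels ran from 139 through 145 to 163 CPM at 6 months and from 56.5 through 70.1 to 105 CPM at 27 months (n = 12 each), with no overlap. In the gastrocnemius it ran from 101 through 109 to 136 CPM (n = 10) and then from 41.1 through 57.9 to 76.4 CPM (n = 11), and in the soleus from 115 through 124 to 150 CPM and then from 56.5 through 71.9 to 112 CPM (n = 12 each). In each of the 3 limb muscles every 27-month library lay below the lowest at 6 months. The log2 change was -1.03 in the tibialis anterior (SE 0.0776, adjusted p = 2.63e-20, 2.04-fold lower), -0.97 in the gastrocnemius (SE 0.0806, adjusted p = 1.06e-16, 1.95-fold lower) and -0.78 in the soleus (SE 0.0751, adjusted p = 5.75e-15, 1.72-fold lower). Most of the fall came after 21 months, with smaller falls before. In the gastrocnemius the change was -0.23 at 18 months (adjusted p = 0.0438) and -0.32 at 21 months (adjusted p = 0.00509). In the tibialis anterior it was -0.26 at 21 months (adjusted p = 0.00835). At 24 months Amd1 was called only in the gastrocnemius (-0.63, adjusted p = 2.91e-09, and -0.36 with total-count scaling, not called). The tibialis anterior change was then -0.55 (adjusted p = 6.92e-09), under 1.5-fold, with all 12 libraries below the 6-month range. The course over the ages was best described by a step with its middle after 21 months in all 3 limb muscles. In the tibialis anterior the middle fell at 27 months, the oldest age and the latest the fit allowed, so it was not located there. In the diaphragm Amd1 ran from 126 through 136 to 160 CPM at 6 months and from 92.9 through 119 to 136 CPM at 27 months, a log2 change of -0.26 (SE 0.0624, adjusted p = 0.000454) that was under 1.5-fold. The change was larger than in the diaphragm by -0.76 in the gastrocnemius (adjusted p = 1.70e-10) and by -0.83 in the tibialis anterior (adjusted p = 9.70e-13). With total-count scaling these were -0.47 and -0.49, under 1.5-fold.

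Srm and Sms pass aminopropyl groups in successive steps, and their changes in the fast limb muscles ran opposite ways. In the gastrocnemius Srm ran from 28.4 through 35.8 to 57.8 CPM at 6 months and from 18.9 through 24.2 to 27.8 CPM at 27 months, and in the tibialis anterior from 28.7 through 34.3 to 37.5 CPM and then from 17.1 through 23.3 to 28.5 CPM. The groups did not overlap in either muscle. Its log2 change was -0.65 in the gastrocnemius (SE 0.0881, adjusted p = 2.05e-09) and -0.59 in the tibialis anterior (SE 0.0752, adjusted p = 7.57e-11). Both calls were lost with total-count scaling (-0.37 and -0.26) and with sample quality weights (-0.55 and -0.58). The gastrocnemius was called at 24 months as well (-0.59, adjusted p = 2.28e-07), close to the limit, and that call was lost with total-count scaling (-0.32), quality weights (-0.57), a fit of the 2 ages alone (-0.58) and the first of the 2 lines of Srm in the files (-0.55). In the soleus Srm also lay below its 6-month range in all 12 libraries, from 8.50 through 13.7 to 16.0 CPM against 16.3 through 18.3 to 21.2 CPM, but the change of -0.50 (SE 0.0743, adjusted p = 2.41e-08) stayed under 1.5-fold. In the diaphragm the Srm change was -0.03 (SE 0.0590, adjusted p = 0.692).

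Sms ran from 13.3 through 16.3 to 19.2 CPM at 6 months in the gastrocnemius and from 21.0 through 24.1 to 30.8 CPM at 27 months, with no overlap. In the tibialis anterior it ran from 13.1 through 13.7 to 16.8 CPM and then from 16.1 through 21.1 to 26.7 CPM, with 11 of 12 libraries above the 6-month range. The log2 changes were 0.68 (SE 0.0841, adjusted p = 1.73e-10) and 0.60 (SE 0.0692, adjusted p = 2.91e-12). In the soleus (0.14, SE 0.0755, adjusted p = 0.104) and the diaphragm (-0.09, SE 0.0744, adjusted p = 0.338) Sms was not called. Against the diaphragm, the Srm change differed by -0.67 in the gastrocnemius and -0.61 in the tibialis anterior, and the Sms change by 0.71 and 0.64, each called. With total-count scaling the Srm differences were -0.38 and -0.27 and not called. Both tibialis anterior calls at 27 months sat close to the 1.5-fold limit. The Sms change ran from 0.56 to 0.63 and that of Srm from -0.62 to -0.55 when single libraries were left out. Sms was no longer called without any one of the 27-month replicate numbers 0, 4, 5, 6 and 8 or the 6-month numbers 2 and 3. Srm was no longer called without any one of the 27-month numbers 3, 5, 6, 7 and 8 or the 6-month numbers 1, 6 and 11. At 24 months Sms was called in neither fast muscle with TMM, though 8 of 9 gastrocnemius and 11 of 12 tibialis anterior libraries lay above the 6-month range. With total-count scaling its 24-month change was 0.82 in the gastrocnemius and 0.74 in the tibialis anterior, both called.

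**Figure D2:**
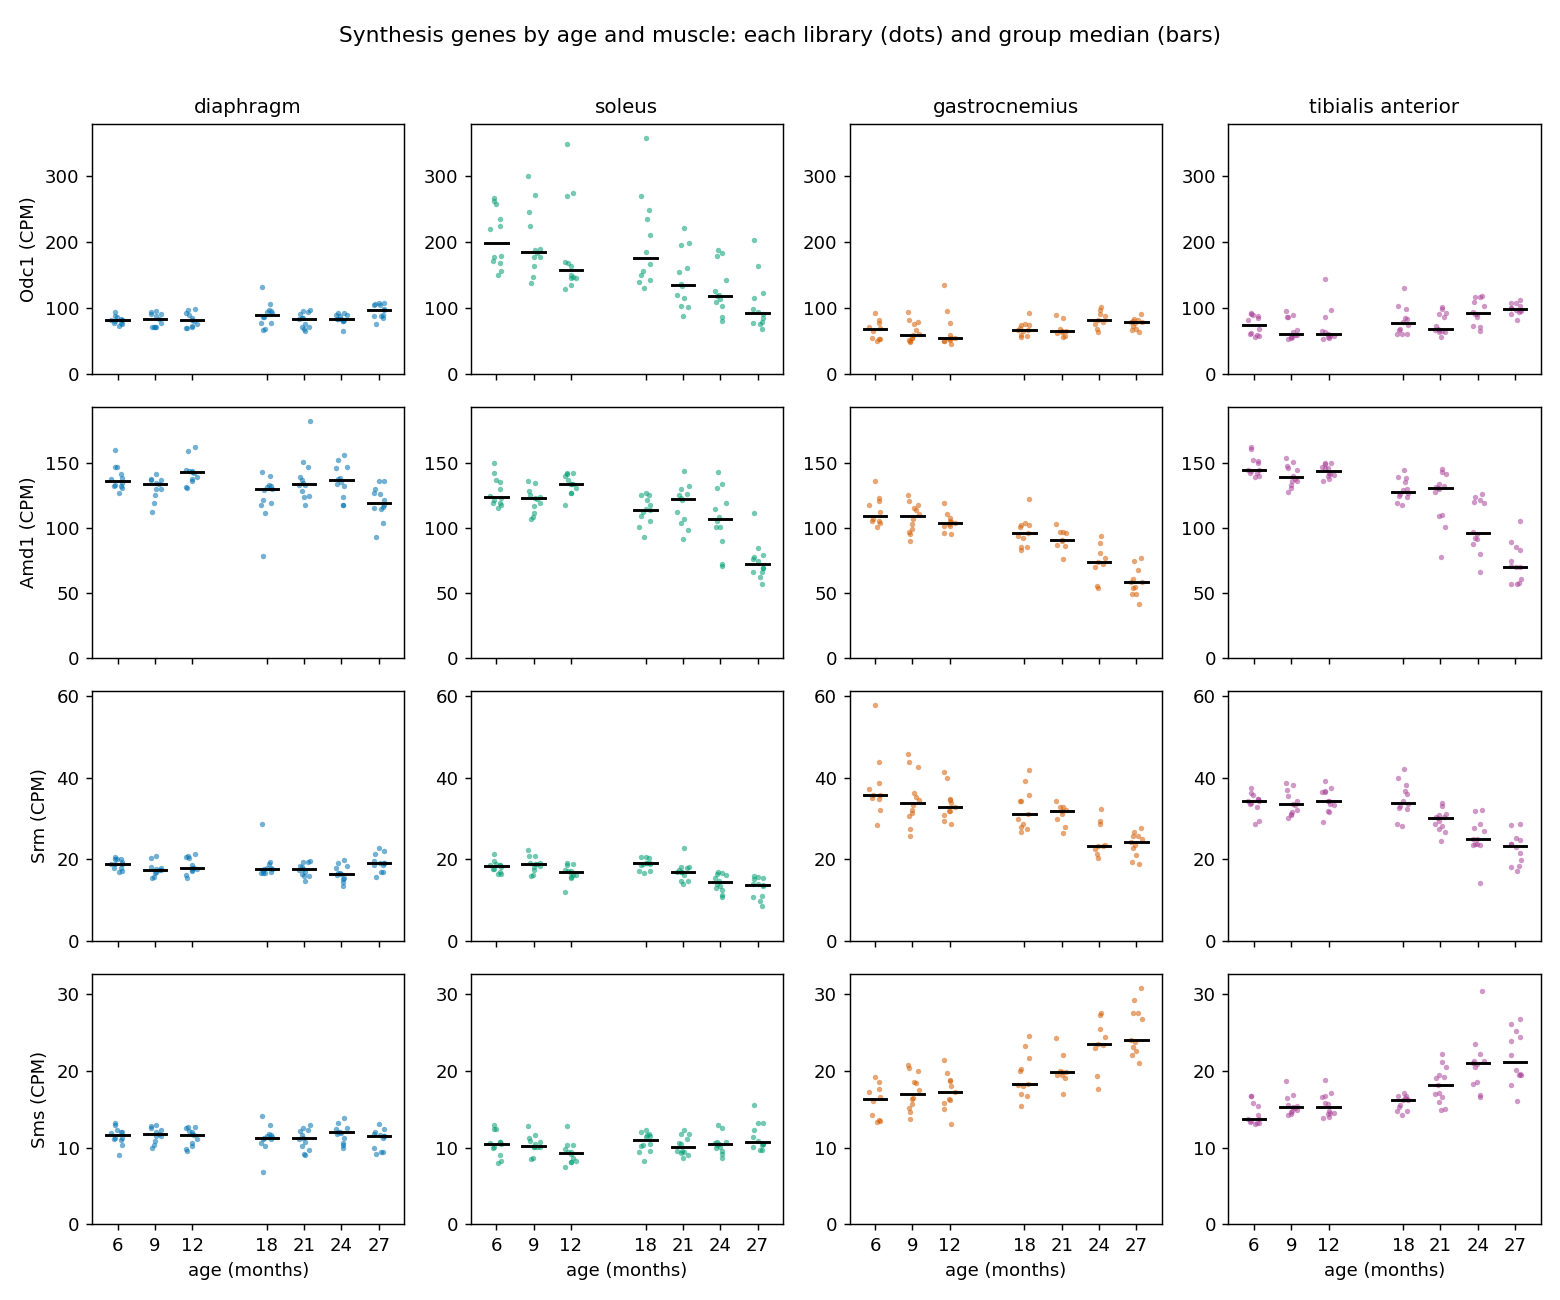
Levels of the 4 synthesis genes (CPM, from 0) against age in months in each muscle, with a dot for each library and a bar for the group median. Odc1 starts at a median of 199 CPM in the soleus and falls to 92.0 CPM, and Amd1 falls in the 3 limb muscles, mostly after 21 months.

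Sat1, the acetyltransferase that starts polyamine breakdown, changed most. At 6 months its lowest, median and highest levels were 7.59, 8.81 and 11.3 CPM in the tibialis anterior, 8.25, 10.1 and 15.5 CPM in the gastrocnemius, 6.79, 10.2 and 12.1 CPM in the soleus and 7.79, 10.2 and 14.7 CPM in the diaphragm. With TMM no pair of muscles was called at that age, with the largest log2 difference at -0.22 for the tibialis anterior against the diaphragm (95% confidence interval -0.53 to 0.10). The muscles thus began within each other's range.

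From 18 months the gastrocnemius and tibialis anterior moved away. In the gastrocnemius the medians were 21.2, 26.1, 55.1 and 53.6 CPM at 18, 21, 24 and 27 months, with log2 changes of 0.99 (SE 0.193, adjusted p = 0.000212), 1.37 (SE 0.199, adjusted p = 2.91e-07), 2.28 (SE 0.196, adjusted p = 8.81e-16) and 2.34 (SE 0.188, adjusted p = 2.27e-17). In the tibialis anterior the medians were 16.6, 24.2, 47.6 and 53.0 CPM, with log2 changes of 0.83 (SE 0.168, adjusted p = 5.39e-05), 1.36 (SE 0.160, adjusted p = 3.21e-10), 2.40 (SE 0.158, adjusted p = 2.39e-22) and 2.58 (SE 0.158, adjusted p = 9.67e-25). At 27 months Sat1 was thus 5.05-fold and 5.98-fold higher, from 29.5 to 79.0 CPM in the gastrocnemius and from 36.6 to 87.6 CPM in the tibialis anterior. From 21 months on, every library of both muscles lay above the highest library of 6 months, and at 18 months 9 of 11 and 11 of 12 did. At 9 and 12 months the changes were 0.22 and 0.20 in the gastrocnemius and 0.07 and 0.07 in the tibialis anterior, none called.

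The soleus rose later and less, from 10.1 through 16.9 to 19.4 CPM at 27 months, with 11 of 12 libraries above the 6-month range and a log2 change of 0.70 (SE 0.0913, adjusted p = 5.14e-10, 1.62-fold). The lowest of these, at 10.1 CPM, was again replicate number 9. In the diaphragm the 27-month libraries ran from 9.27 through 13.5 to 25.4 CPM, with 6 of 12 above the 6-month range, and the log2 change of 0.45 (SE 0.118, adjusted p = 0.00109) was under 1.5-fold. The Sat1 change exceeded that of the diaphragm by 1.83 in the gastrocnemius (adjusted p = 8.16e-15) and 2.08 in the tibialis anterior (adjusted p = 4.23e-19), and that of the soleus by 1.64 (adjusted p = 3.73e-12) and 1.90 (adjusted p = 1.94e-16). Between the tibialis anterior and gastrocnemius the Sat1 changes differed by 0.25 (95% confidence interval -0.15 to 0.66), which was not called.

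Smox, which turns spermine back into spermidine, moved against Sat1. At 6 months it ran from 6.49 through 8.88 to 11.8 CPM in the gastrocnemius and from 7.24 through 8.40 to 10.1 CPM in the tibialis anterior. In the diaphragm it ran from 2.90 through 3.64 to 5.13 CPM, and in the soleus from 2.33 through 3.38 to 4.76 CPM. Both fast muscles lay above the diaphragm and soleus at that age without overlap, by 2.53-fold and 2.36-fold over the diaphragm and by 2.74-fold and 2.56-fold over the soleus, each called. By 27 months Smox had dropped to 2.59, 3.69 and 5.60 CPM (lowest, median, highest) in the gastrocnemius and to 3.27, 3.99 and 7.69 CPM in the tibialis anterior, near the levels of the other muscles. All 11 gastrocnemius libraries and 11 of 12 tibialis anterior libraries lay below the 6-month range, and the tibialis anterior library at 7.69 CPM was replicate number 9. The log2 change was -1.18 in the gastrocnemius (SE 0.111, adjusted p = 1.04e-14, 2.27-fold lower) and -1.08 in the tibialis anterior (SE 0.103, adjusted p = 1.42e-15, 2.11-fold lower). It was called from 21 months in the gastrocnemius (-0.71, adjusted p = 1.27e-06) and from 24 months in the tibialis anterior (-0.90, adjusted p = 5.39e-13), but with total-count scaling the gastrocnemius value at 21 months was -0.57 and not called. Lower levels were seen before these calls. At 9, 12, 18 and 21 months, 6 of 12, 7 of 12, 4 of 12 and 13 of 13 tibialis anterior libraries lay below the 6-month range. In the gastrocnemius 3 of 12, 4 of 11, 6 of 11 and 8 of 9 did. Smox was not called in the diaphragm (-0.21, SE 0.0960, adjusted p = 0.0676) or the soleus (-0.22, SE 0.120, adjusted p = 0.116), and the fast muscles differed from these by -1.02 and -0.91 against the diaphragm and by -0.95 and -0.84 against the soleus, each called, though the tibialis anterior against the diaphragm was -0.56 and not called with total-count scaling. Smox had the fewest reads of the 8 genes.

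Of the regulators of Odc1, Oaz1 was called at no age in any muscle. At 6 months it ran from 237 through 304 to 462 CPM in the gastrocnemius and from 250 through 275 to 291 CPM in the tibialis anterior, against 125 through 138 to 151 CPM in the diaphragm and 120 through 134 to 143 CPM in the soleus. The fast muscles thus lay above the others without overlap, by 2.27-fold and 1.96-fold over the diaphragm and 2.35-fold and 2.03-fold over the soleus, each called. At 27 months the largest Oaz1 change was in the soleus, where all 12 libraries lay above the 6-month range, from 146 through 159 to 184 CPM, with a log2 change of 0.29 (SE 0.0454, adjusted p = 5.48e-08). The other changes were 0.15 in the tibialis anterior (SE 0.0432, adjusted p = 0.00176), 0.08 in the diaphragm (SE 0.0511, adjusted p = 0.206) and 0.03 in the gastrocnemius (SE 0.113, adjusted p = 0.817, 95% confidence interval -0.19 to 0.26). Oaz1 did not rise steadily in the soleus, where the medians were 134, 143, 127, 146, 140, 133 and 159 CPM over the 7 ages. There 6 of 12 libraries at 9 months, 8 of 12 at 18 months and 1 of 12 at 24 months lay above the 6-month range. Its fitted step in the soleus had its middle at 27 months, the latest the fit allowed.

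Azin1, the antizyme inhibitor, had opposite signs in different muscles. In the gastrocnemius it ran from 67.6 through 103 to 134 CPM at 6 months and from 148 through 163 to 193 CPM at 27 months, with no overlap and a log2 change of 0.71 (SE 0.105, adjusted p = 2.38e-08), and it was called at 24 months as well (0.71, SE 0.110, adjusted p = 9.27e-08). Tibialis anterior levels ran from 118 through 138 to 156 CPM and then from 119 through 172 to 216 CPM, a change of 0.33 (SE 0.0739, adjusted p = 6.14e-05) under 1.5-fold, and 0.46 at 24 months (adjusted p = 2.61e-07). With total-count scaling it was 0.65 at both ages and called. In the diaphragm it went from 93.7 through 117 to 191 CPM down to 67.8 through 87.6 to 122 CPM, with 7 of 12 libraries below the 6-month range and a change of -0.52 (SE 0.0877, adjusted p = 1.09e-06), also under 1.5-fold. In the soleus it was 0.08 (SE 0.0544, adjusted p = 0.213). The Azin1 change differed from that of the diaphragm by 1.17 in the gastrocnemius (adjusted p = 7.90e-19) and 0.80 in the tibialis anterior (adjusted p = 6.17e-11), and that of the gastrocnemius from the soleus by 0.64 (adjusted p = 7.22e-07), or by 0.55 and not called with quality weights.

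**Figure D3:**
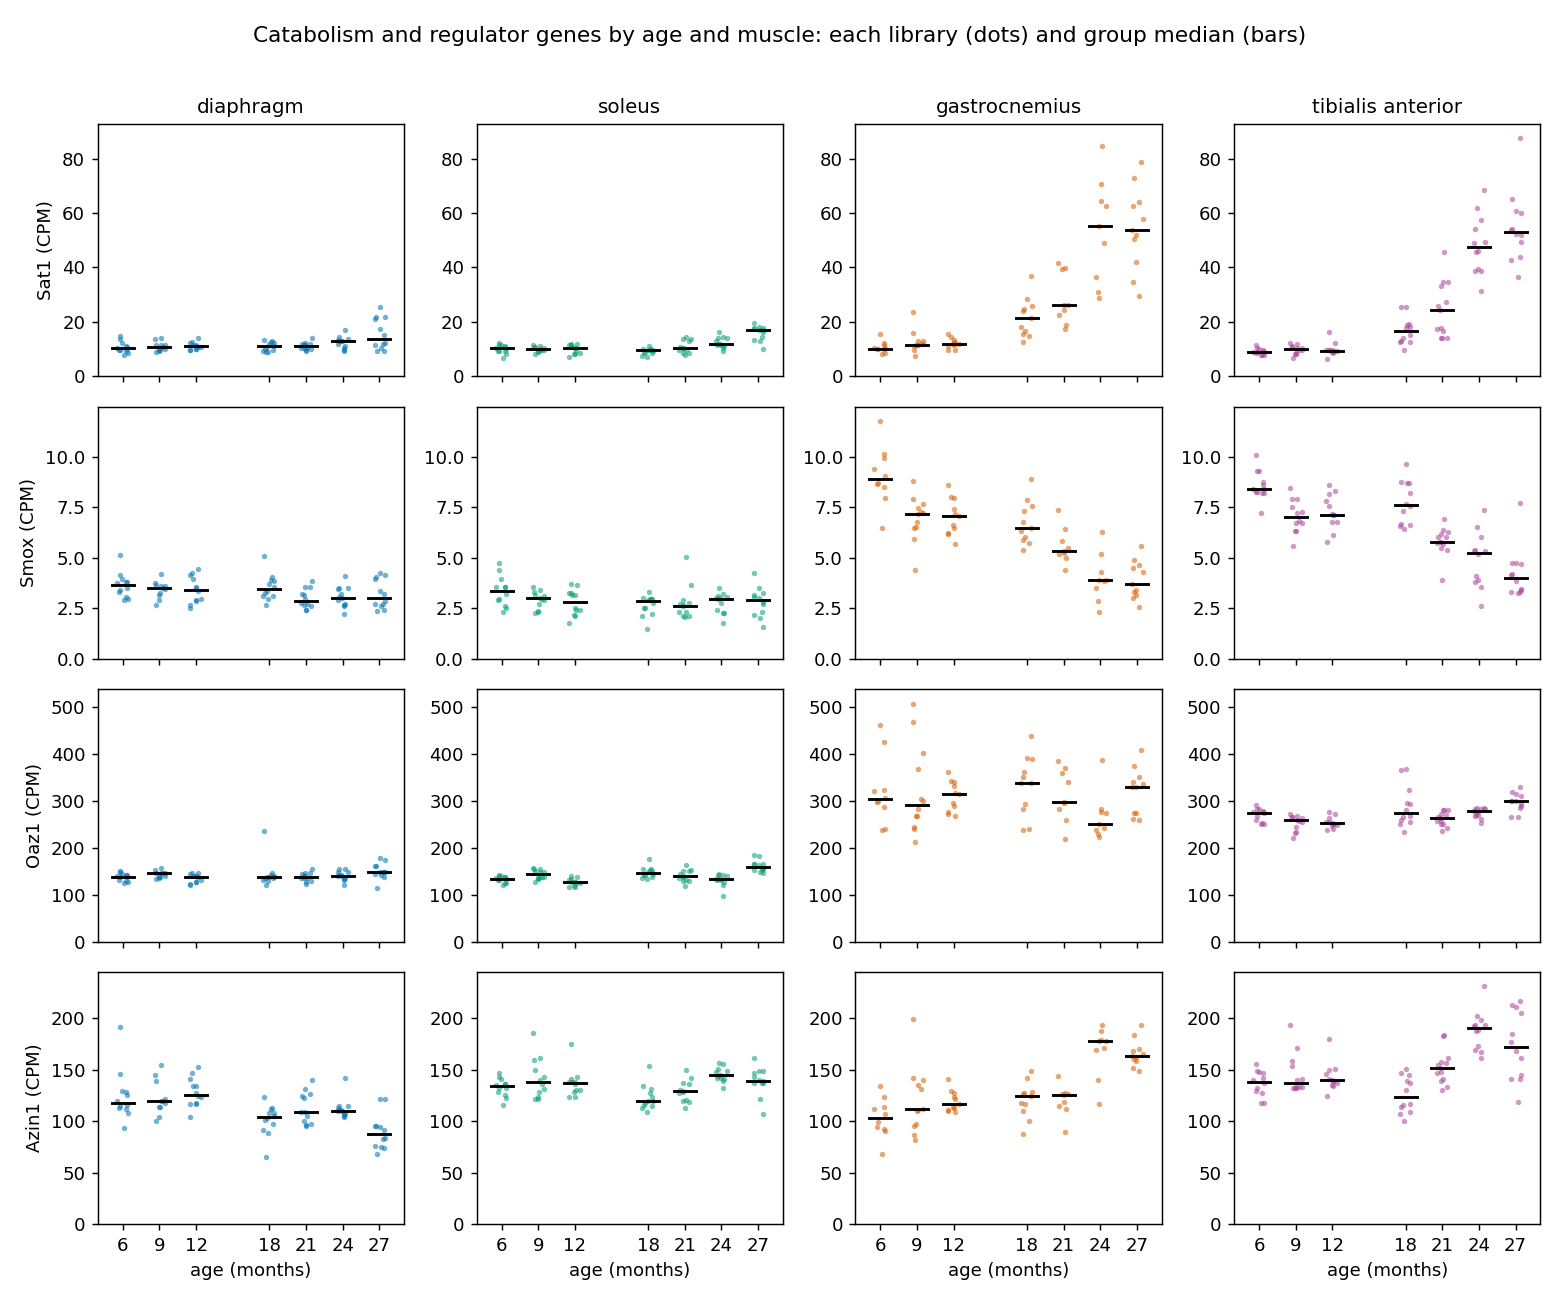
Levels of Sat1, Smox, Oaz1 and Azin1 (CPM, from 0) against age in months in each muscle, with a dot for each library and a bar for the group median. Sat1 rises from 18 months in the gastrocnemius and tibialis anterior while the Smox medians there go from 8.88 and 8.40 CPM at 6 months to 3.69 and 3.99 CPM at 27 months.

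Across the 6 pairs of muscles, 20 of 48 differences in a member's change from 6 to 27 months were called. Against the diaphragm, 6 of 8 members differed in the gastrocnemius (21.6% of 12784 genes) and the same 6, Amd1, Azin1, Sat1, Smox, Sms and Srm, in the tibialis anterior (20.3%), and 1, Odc1, in the soleus (11.9%). Against the soleus, 4 differed in the gastrocnemius (14.5%), namely Azin1, Odc1, Sat1 and Smox, and 3 in the tibialis anterior (15.8%), namely Odc1, Sat1 and Smox. Total-count scaling added Azin1 in the soleus against the diaphragm (0.70) and Sms in the gastrocnemius (0.67) and tibialis anterior (0.63) against the soleus. Between the tibialis anterior and gastrocnemius no member was called by limma-voom, the tool run on these pairs (7.32% of genes), and 1 had an unadjusted p under 0.05. The levels at 6 months were called for 1 member between the soleus and diaphragm (23.9% of genes), 3 between the gastrocnemius and diaphragm (37.3%), 3 between the tibialis anterior and diaphragm (35.1%), 5 between the gastrocnemius and soleus (45.4%), 4 between the tibialis anterior and soleus (42.9%), and none between the tibialis anterior and gastrocnemius (17.3%), where 4 had an unadjusted p under 0.05. Besides Odc1, Smox and Oaz1, described above, the levels called were those of Srm, 1.98-fold and 1.78-fold higher in the gastrocnemius and tibialis anterior than in the diaphragm and 2.05-fold and 1.85-fold higher than in the soleus, and of Sms, 1.53-fold higher in the gastrocnemius than in the soleus. Amd1, Sat1 and Azin1 were called between no muscles at 6 months with TMM. The scaling mattered for these levels. With total counts Amd1 (-0.73) and Azin1 (-0.71) were called below the diaphragm in the gastrocnemius, Azin1 there also below the soleus (-0.78), and Sat1 in the tibialis anterior below the diaphragm (-0.66). The Sms difference fell to 0.20 and was not called. Srm kept its call between the gastrocnemius and soleus, but against the diaphragm it was 0.55 in the gastrocnemius and 0.39 in the tibialis anterior, and 0.47 in the tibialis anterior against the soleus, none called, and the Oaz1 difference of the tibialis anterior from the diaphragm was 0.52, also not called.

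**Figure D4:**
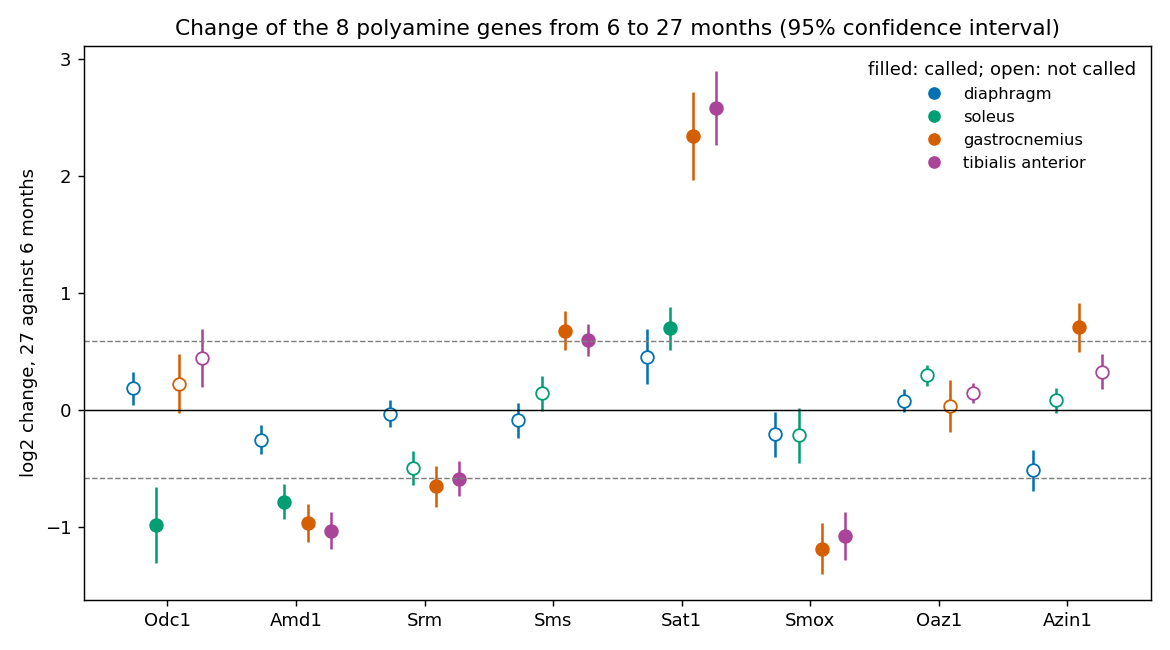
Log2 change from 6 to 27 months of each gene in each muscle with its 95% confidence interval, filled where called and open where not, and dashed lines at 1.5-fold up and down. Sat1 stands at 2.34 in the gastrocnemius and 2.58 in the tibialis anterior, and the diaphragm has no filled point.

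The course over the 7 ages was described by comparing no trend, a straight line and a logistic step of log2 CPM on age by the Bayesian information criterion. All 8 genes had a trend in the tibialis anterior, 6 had one in the gastrocnemius, 5 of 8 did so in the soleus, and the diaphragm had 2. Trends were fitted for the members only, so no share of all genes stands beside these counts. With total-count scaling Odc1 also had a trend in the gastrocnemius, and Sms and Azin1 had one in the soleus. Sat1 followed a step with its middle at 20 months in the gastrocnemius and 21 months in the tibialis anterior, a step at 24.25 months in the soleus and a line in the diaphragm. Smox declined along a line in the gastrocnemius and a step at 21.5 months in the tibialis anterior. In the soleus Odc1 decreased by 0.044 on the log2 scale per month along a line, and it rose along a line in the tibialis anterior, by 0.023 per month. The trends of the diaphragm were the rise of Sat1 and a linear decline of Azin1.

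Of the other genes of polyamine metabolism, a list of 29 feeder, salvage, transport and related genes, 28 were in the files, and 26 to 28 were tested in a muscle. At 27 months 1 rose in the diaphragm and 3 in the soleus, 4 rose and 1 fell in the gastrocnemius, and 6 rose and 1 fell in the tibialis anterior. These were 3.85%, 10.7%, 19.2% and 26.9% of the list members tested, below the 7.52%, 15%, 22.8% and 27.6% of all genes, so the list had no more calls than genes in general. The list medians were 0.06, -0.02, 0.07 and 0.01 on the log2 scale in that order, beside 0.00, 0.02, 0.04 and 0.02 for all genes. Transport genes made up most of these, and the gene that fell in both fast muscles was Atp13a2 (-0.73 and -0.84), named here after its values were seen. Slc7a2, a transporter of cationic amino acids, rose in all 4 muscles, by 0.66 in the diaphragm, 1.01 in the soleus, 1.10 in the gastrocnemius and 0.81 in the tibialis anterior. Slc7a5, the light chain of a neutral amino acid exchanger, had its largest log2 change in the tibialis anterior (2.65, SE 0.221, median 0.830 CPM to 5.09 CPM) and rose by 1.07 in the soleus and 1.17 in the gastrocnemius. Atp13a3, a relative of Atp13a2, which exports polyamines from lysosomes, rose by 2.07 in the soleus, 1.26 in the gastrocnemius and 1.42 in the tibialis anterior. Its 6-month medians there were low, at 0.455, 2.82 and 0.817 CPM. Arg1, arginase, which makes ornithine, rose by 1.81 in the gastrocnemius and 2.27 in the tibialis anterior from medians under 1 CPM (0.554 and 0.399 CPM). In the catabolism group Sat2 rose in the tibialis anterior (0.59, SE 0.119, adjusted p = 8.37e-06), and no gene of the antizyme relatives (Oaz2, Oaz3, Azin2) or of hypusination, the step that uses spermidine to modify Eif5a, was called in any muscle.

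Libraries of whole muscle mix cell types, so fewer cells of a type and less RNA per cell cannot be told apart. At 27 months all 8 macrophage markers rose in the gastrocnemius and tibialis anterior, 2 in the soleus and none in the diaphragm, and their summed level went from 47.0 to 74.2 CPM at 6 months to 104 to 221 CPM in the tibialis anterior and from 104 to 185 CPM to 200 to 357 CPM in the gastrocnemius. All 5 markers of denervated fibers rose in each of the 4 muscles. Their sum went from 59.1 to 109 CPM up to 299 to 2948 CPM in the tibialis anterior, from 68.3 to 121 CPM up to 438 to 2393 CPM in the gastrocnemius, from 299 to 558 CPM up to 567 to 3336 CPM in the soleus and from 54.4 to 85.0 CPM up to 130 to 554 CPM in the diaphragm. Adipocyte markers rose 5 of 5 in the 3 limb muscles and 0 of 5 in the diaphragm, and T cell markers rose for 3 of 3 tested in the tibialis anterior, 2 of 3 in the gastrocnemius, 1 of 3 in the soleus with 1 falling, and 2 of 5 in the diaphragm. Of 6 muscle fiber genes 1 fell in the gastrocnemius and 1 in the tibialis anterior and 1 rose in the soleus. Medians of the summed level of these 6 genes went from 105138 to 79264 CPM in the gastrocnemius and from 95916 to 70818 CPM in the tibialis anterior. They went from 55972 to 47002 CPM in the soleus and from 54836 to 60809 CPM in the diaphragm. Fibroblast markers fell for 3 of 5 in the diaphragm and 1 of 5 in the soleus and gastrocnemius, endothelial markers for 1 of 5 in each limb muscle, and of Schwann cell markers 1 rose and 2 fell in the gastrocnemius. No listed marker was at 0 in all 6-month libraries of a muscle. The part of these cell types in the changes of Sat1, Amd1, Smox and the other members was not tested.

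A shared difference between libraries was summarized as the leading principal component of non-member genes within ages, learned in another muscle. In the gastrocnemius its score went from 0.69 to 1.08 at 6 months to -2.77 to -0.25 at 27 months without overlap, so there it moved with age. With the score as a covariate, a choice made after seeing the data, 1 member, Sat1, stayed called in the gastrocnemius at 27 months, and 4.15% of genes in place of 22.8%. Its change was then 1.23, against -0.31 for Amd1, -0.26 for Smox, -0.08 for Srm, 0.27 for Sms and 0.31 for Azin1. In the tibialis anterior the score overlapped between 6 and 27 months, from -0.72 to 0.16 and from -0.92 to 3.13, and the 5 calls stayed.

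The patterns of the 8 genes over the 28 group means of log2 CPM were set beside those of 10399 other genes with a mean log2 CPM over 0, as a description over groups that share muscles and ages. The most alike by Pearson correlation were Faah (0.98) and Dclk1 (0.97) for Sat1, Snx3 (0.96) and Eif4e (0.95) for Amd1, Phc1 (0.98) and Taf5l (0.98) for Smox, and Nicn1 (0.97) and Txnrd3 (0.96) for Odc1. For Srm they were Dnajc11 (0.99) and Scamp3 (0.98), for Sms Med10 (0.98) and Oraov1 (0.97), for Oaz1 Adrm1 (0.99) and Ubxn6 (0.99), and for Azin1 Baz1a (0.91) and Dync1i2 (0.91). Azin1 was thus the member with the least similar nearest gene.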

How the data were processed

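The authors deposited a table of raw counts by gene for every library. Per their methods, ribosomal RNA was removed, strand-specific libraries were sequenced, and ArrayStudio counted reads over a gene model of their own on a rat reference that precedes GRCr8. The counts were whole numbers on 17870 lines for 17315 symbols. Lines of 1 symbol were summed. Srm stood on 2 lines, equal in 296 libraries and different in 29, so its reads may be counted on both.

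Genes were kept by filterByExpr (minimum count 10, minimum total 15), scaled by TMM in edgeR 4.0.16 and fitted in limma-voom (limma 3.58.1, R 4.3.3), with all ages of a muscle for changes against 6 months and all 28 groups for comparisons between muscles. Tests were two-sided. Log2 CPM used a prior count of 0.5. A trend needed a gain of over 6 in the Bayesian information criterion, and a logistic step a further 2 over the line. A step with its middle after 21 months was called late. Alternatives included edgeR's quasi-likelihood test and DESeq2 1.42.0. The scripts were tested on simulated data. The members and gene lists were chosen with earlier results of these data known. All 8 members are named in every comparison, with values for the 4 other pathway genes that changed most at 27 months, those called in the catabolism, antizyme and hypusination groups, and the 2 genes most like each member. Replicate numbers were not tied to animals in the labels, and the main fits held no term for the animal. Promoter sequences came from RefSeq (GRCr8), which is not the build of the counts.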

Additional observations from a re-analysis of the deposited data

Results flagged for a closer look

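Dixon's test at the 95% level was run on 24 sets of values. Each set held 1 gene in the gastrocnemius group of 6, 21 or 24 months. These are the groups of 9 or 10 libraries, and the larger groups were not tested. In these sets 1 value stood far from the rest, and the test marks about 1 in 20 sets by chance. It was Oaz1 at 24 months in replicate number 0, at 387 CPM against a group median of 251 CPM.

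The change from 6 to 27 months differed between muscles in 20 of 48 tests of the difference itself, given here as log2 differences. Among all genes the share called ran from 7.32% to 21.6% over the 6 pairs of muscles. The pairs share muscles, so the 48 tests are not independent. For Sat1 it was larger than in the diaphragm by 1.83 in the gastrocnemius and 2.08 in the tibialis anterior, and larger than in the soleus by 1.64 and 1.90. For Smox the same differences were -1.02 and -0.91 against the diaphragm and -0.95 and -0.84 against the soleus. For Odc1 the soleus differed from the diaphragm by -1.23, and the gastrocnemius and tibialis anterior from the soleus by 1.22 and 1.44. Against the diaphragm, the gastrocnemius and tibialis anterior differed by -0.76 and -0.83 for Amd1, -0.67 and -0.61 for Srm, 0.71 and 0.64 for Sms, and 1.17 and 0.80 for Azin1. The gastrocnemius differed from the soleus by 0.64 for Azin1. The gastrocnemius libraries carried their own number series, so its differences cannot be told apart from that series.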

How the results depend on the processing

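No called change or difference of a member turned sign under any alternative. Uncalled values at 27 months did so for Srm in the diaphragm (0.0088 with total-count scaling), and, with the library score as a covariate, for Oaz1 (-0.085) and Sms (0.098) in the diaphragm. For Oaz1 in the gastrocnemius, leaving out 1 library gave -0.013 to 0.073. Total-count scaling, which moved the median of all genes as given above, ended 15 calls and made 15, with no called direction flipped. Srm kept neither of its 27-month calls under it. With it the gastrocnemius had 1 member called at 21 months and the tibialis anterior 4 at 24 months, with 3 in the difference of the tibialis anterior from the diaphragm, 2 in that of the soleus from the diaphragm, and 5 in the 6-month level of the gastrocnemius against the diaphragm. Taking the first line of each symbol, or sample quality weights, also gave 2 for the soleus against the diaphragm, where Amd1 passed 1.5-fold. Bonferroni adjustment left 0 in the soleus at 24 months, where limma-voom with Benjamini-Hochberg, edgeR and DESeq2 each called 1 and 5 had an unadjusted p under 0.05. The library score, added after seeing the data, left 1 in the gastrocnemius at 21, 24 and 27 months. Leaving out 1 library at a time in 93 fits gave 0 called in the diaphragm, 3 in the soleus, 6 in the gastrocnemius and 3 to 5 in the tibialis anterior at 27 months, the 3 without the 27-month replicate number 5, 6 or 8. The Srm change in the tibialis anterior fell under 1.5-fold with total-count scaling (-0.26), edgeR (-0.57), DESeq2 (-0.57), sample quality weights (-0.58) and the replicate block (-0.58). The replicate block changed no other call. It uses numbers that pair no animals in the labels, and within a muscle it joins different rats across ages. Between muscles, 260 of 468 same-numbered libraries of 2 muscles had deviations correlated above 0.1, with 170 closest to their own number. The number expected without shared rats was not computed, and the pairs of muscles were unlike. Between the soleus and tibialis anterior at 6 months 10 of 12 were closest to their own number. Their median correlation was 0.18, against -0.02 for libraries with different numbers. Between the soleus and gastrocnemius at 12 months 0 of 11 were, with medians of -0.06 and -0.003. RLE size factors ended 1 call, that of Srm between the tibialis anterior and diaphragm, and neither the absence of a filter nor leaving out the third number series changed any call. Smox, with as few as 30 reads, has the least depth behind its values.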
